A study of Homo sapiens with 8 samples.

Results

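The H3K79me3 regions at promoters were 1122 of the 13666 regions in the authors' deposited table for trimethylation of lysine 79 of histone H3, or 8.21% (95% Wilson interval 7.76 to 8.68%). They were chosen by 1 rule that uses no measured value: the table's promoter column names at least 1 gene. The authors' CpG columns split them into 256 regions in a CpG island, 667 in a CpG shore (the flank of an island) and 199 in neither, with a region listed in both columns counted as island. The promoter column named 976 genes, since 137 of the 1122 regions (12.2%) stood at the promoters of 2 or more genes.

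The study profiled MOLM-13, a human acute myeloid leukemia line that carries a fusion of the MLL (KMT2A) gene, by chromatin immunoprecipitation and sequencing of H3K79me3 and H3K79me2. The compared cells were shLAMP5-AS1 cells, in which a short hairpin RNA targets the long noncoding RNA LAMP5-AS1, and shNC cells, which carry a control hairpin. Each mark and condition had 1 ChIP library and 1 input library, so each group held 1 sample and no comparison of conditions could be tested. Other label fields go against the titles: the transfection field of shNC names a control siRNA, the treatment field names knockdowns of other genes, and the growth field describes cells from a xenograft. Here the conditions were taken from the titles and the line from its own field. RNA was not measured in these libraries, so the tables hold no check of the knockdown, and a list of regions called different gives no levels with which to check the cell type.

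H3K79 methylation is placed by a single enzyme, DOT1L, on the surface of the nucleosome core, and it marks the transcribed part of active genes, strongest just after the start and falling along the body. In MLL-rearranged leukemia the fusion partners bring DOT1L to genes such as the HOXA cluster, MEIS1 and their cofactors, where the mark is spread widely. A promoter is the stretch around a transcription start. Many human promoters lie in CpG islands, where the CG dinucleotide is kept at a high density, and such promoters often fire in both directions.

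Every region carried a signed score made by the authors, with no unit and none between -5 and 5. Neither the files nor the labels say which condition a negative score stands for, so signs are given as deposited and are not read as gain or loss. All scores in the text are the authors' own values for single regions in the authors' deposited tables, with no replicate behind them. Intervals over regions cover counting error only, since regions of the same cells are not replicates.

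Start sequences of selected genes are shown here, since the results concern CpG-rich and CpG-poor starts. Each line holds the 150 bases before the RefSeq start of a gene, from 5′ to 3′ on its own strand in GRCh38.p14, with every CG dinucleotide in capitals. MSL1, HBS1L and ENO1 stand for the island, shore and neither classes. They are the protein-coding genes with the most negative own-body score in each class among genes with a single RefSeq window, leaving out the near-identical GOLGA8 copies. ENO1 tied at -16.22 with the region in RPL4 and was taken first by alphabet. VEGFB held the most positive score. LAMP5 and LAMP5-AS1 are the targeted locus. KBTBD3 and AASDHPPT are a pair of genes that start back to back with 314 bases between their starts, and a region in the KBTBD3 promoter lies in the AASDHPPT body.
MSL1, chr17:40121821-40121970, plus strand: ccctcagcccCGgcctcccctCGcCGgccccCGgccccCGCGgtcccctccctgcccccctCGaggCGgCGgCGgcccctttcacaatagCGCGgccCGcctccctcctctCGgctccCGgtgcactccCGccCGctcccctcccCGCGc
HBS1L, chr6:135054823-135054972, minus strand: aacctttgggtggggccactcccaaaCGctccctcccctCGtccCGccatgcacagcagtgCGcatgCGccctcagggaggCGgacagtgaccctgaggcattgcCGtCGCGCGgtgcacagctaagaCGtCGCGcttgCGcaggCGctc
ENO1, chr1:8878687-8878836, minus strand: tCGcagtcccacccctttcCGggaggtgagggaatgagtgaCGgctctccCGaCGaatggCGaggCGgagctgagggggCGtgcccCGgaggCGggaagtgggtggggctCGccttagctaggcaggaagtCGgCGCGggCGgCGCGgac
VEGFB, chr11:64234434-64234583, plus strand: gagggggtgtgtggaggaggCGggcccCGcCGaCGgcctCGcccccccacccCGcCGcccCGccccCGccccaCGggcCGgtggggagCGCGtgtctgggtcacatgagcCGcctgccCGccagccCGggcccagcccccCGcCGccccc
LAMP5, chr20:9514440-9514589, plus strand: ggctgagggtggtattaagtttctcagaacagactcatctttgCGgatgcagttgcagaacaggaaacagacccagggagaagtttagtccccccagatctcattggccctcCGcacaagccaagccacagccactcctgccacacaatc
LAMP5-AS1, chr20:9514999-9515148, minus strand: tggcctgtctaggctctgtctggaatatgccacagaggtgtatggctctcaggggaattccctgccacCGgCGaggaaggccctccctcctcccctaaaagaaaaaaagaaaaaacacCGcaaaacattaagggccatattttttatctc
KBTBD3, chr11:106077348-106077497, minus strand: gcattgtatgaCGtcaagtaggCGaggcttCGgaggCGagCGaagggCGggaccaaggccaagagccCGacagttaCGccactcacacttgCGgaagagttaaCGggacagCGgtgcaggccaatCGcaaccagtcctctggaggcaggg
AASDHPPT, chr11:106077512-106077661, plus strand: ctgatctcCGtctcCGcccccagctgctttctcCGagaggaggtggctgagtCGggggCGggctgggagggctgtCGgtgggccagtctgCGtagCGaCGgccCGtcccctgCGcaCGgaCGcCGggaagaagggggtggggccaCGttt

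The printed stretch held 19 CG dinucleotides at MSL1, 18 at VEGFB, 17 at ENO1 and 15 at HBS1L, against 2 at LAMP5 and 3 at LAMP5-AS1. ENO1, the glycolytic enzyme enolase, had a CpG-rich start although its region, on chromosome 1 from 8932550 to 8932632 with a score of -16.22, lay in neither CpG column. ENO1 is not typical of its class: TCF4, IKZF1 and RGS3, whose own-body scores in neither class were more negative (-51.04, -22.83 and -17.36), have 10, 3 and 5 windows, with CpG-poor median ratios of observed to expected CG of 0.307, 0.184 and 0.204, against 0.882 at ENO1. The class describes the position of the region and not always the start of its gene. The coordinates of the regions are on the authors' build, which is not GRCh38: of 231 promoter regions that the table puts in an intron of their single promoter gene, 31 (13.4%) fell inside that gene's GRCh38 bounds. They were not converted, and the printed windows are not the regions themselves.

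Among the small RNA genes, the table names the MIR17 to MIR92A1 cluster, an oncogenic microRNA cluster, and MIR196B, which lies within the HOXA cluster. Both were chosen for printing after their values were seen. The mature RNAs are from RefSeq, with the seed (bases 2 to 8) in capitals. The first pair shares 1 seed and the second pair another.
miR-17-5p: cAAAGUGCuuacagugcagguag
miR-20a-5p: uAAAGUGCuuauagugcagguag
miR-19a-3p: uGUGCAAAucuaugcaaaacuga
miR-19b-3p: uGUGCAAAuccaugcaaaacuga
miR-18a-5p: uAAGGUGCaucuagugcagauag
miR-92a-3p: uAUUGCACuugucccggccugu
miR-196b-5p: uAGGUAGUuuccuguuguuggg

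Nearly all H3K79me3 promoter regions had a negative score. Of the 1122 regions, 1104 were negative and 18 positive, a negative share of 98.4% (97.5 to 99.0%). The other 12544 H3K79me3 regions were 97.5% negative (97.2 to 97.7%). The difference was 0.939 percentage points (95% Newcombe interval -0.0151 to 1.59), and it was 0.342 points (-0.606 to 0.989) against the 11304 other regions that lie in a gene. Both intervals span 0. In regions of score size 10 or more the difference from the other regions was 1.46 points (0.408 to 2), an interval above 0. The H3K79me2 promoter regions, 485 of 8746, were 54.0% negative (49.6 to 58.4%), against 55.4% of the other H3K79me2 regions (54.3 to 56.4%). The contrast in sign between the marks was thus found across the tables, at promoters and elsewhere, in separate ChIP libraries that were scored separately.

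The size of the score, its value without the sign, was also much the same at promoters and elsewhere. Its median was 10.25 at promoters, with quartiles of 8.32 and 12.7, against a median of 10.19 in the other H3K79me3 regions. The 1122 promoter regions took 144 distinct scores, and 63 of them shared the score -9.51. Sizes of 20 or more were found in 39 promoter regions. The regions were narrow, with a median width of 86 bp and a range of 63 to 543 bp, and 38 were at least 200 bp wide.

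**Figure D1:**
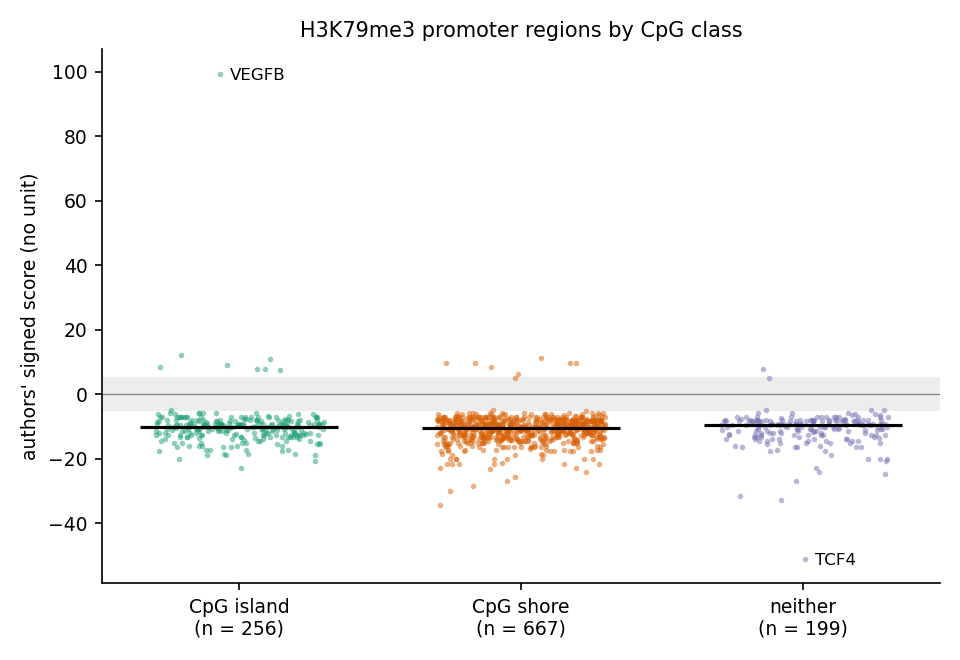
Each point is 1 H3K79me3 promoter region, with the authors' signed score (no unit) on the vertical axis and the CpG class on the horizontal axis. Black lines are medians, and the grey band from -5 to 5 holds no region. Of 1122 points, 18 lie above 0, and VEGFB at 99.48 and TCF4 at -51.04 stand apart.

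Promoter regions were mostly in or beside CpG islands. Islands held 22.8% of them (20.5 to 25.4%), shores 59.4% (56.5 to 62.3%) and neither class 17.7% (15.6 to 20.1%), against 1.51%, 14.9% and 83.6% of the other H3K79me3 regions. Of all H3K79me3 regions in an island, 57.4% stood at a promoter, as did 26.3% of those in a shore and 1.86% of those in neither. The shore share in H3K79me2 promoter regions was 58.1%, with 17.5% in islands and 24.3% in neither. Islands lie at gene starts genome-wide, so these shares describe where the promoter column falls and are not set against a chance level.

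The classes differed little in score. The negative share was 96.9% in islands (94.0 to 98.4%, 8 of 256 positive), 98.8% in shores (8 of 667 positive) and 99.0% in neither (2 of 199 positive). The negative share in islands minus that in neither was -2.12 points (-5.13 to 0.885). Islands minus shores gave -1.93 points (-4.90 to -0.00947), an interval that ends just short of 0. The comparison of islands with shores was added after the data were seen. Within each class, promoter regions minus other regions gave 0.0329 points in islands (-3.35 to 3.91), -0.610 in shores (-1.79 to 0.140) and 1.87 in neither (-0.728 to 2.68). Each of these 3 intervals spans 0. The median score size was 10.19 in islands, 10.52 in shores and 9.51 in neither. The H3K79me2 promoter regions were 64.7% negative in islands, 49.6% in shores and 56.8% in neither.

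In islands the most negative score was -22.83 at MSL1, the scaffold of a complex that acetylates histone H4, on chromosome 17 from 38279035 to 38279236. OXR1, which protects cells from oxidative damage, followed with -20.75, and ADRBK1, a kinase of G protein-coupled receptors, with -20.12. A single region at -18.8 stood at the shared promoter of MCM8-AS1 and CRLS1, the enzyme that makes cardiolipin in mitochondria. MIR618, a microRNA inside the gene LIN7A, also had -18.8, and EID3, a subunit of the SMC5 and SMC6 complex, had -18.76. CDK6, a kinase that drives entry into the cell cycle and a known target of MLL fusions, had -18.5. Most of these regions lay in the body of the gene whose promoter they marked, with MIR618 as the exception.

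In shores the leading regions were at small RNA genes. SNORA71D, a small nucleolar RNA of the class that guides pseudouridylation, had -34.34 over 543 bp, the widest promoter region, inside its host gene SNHG17. MIR6515 had -29.9 in an exon of CALR, which encodes a chaperone of the endoplasmic reticulum. SNORD84, of the class that guides ribose methylation, had -28.46 inside DDX39B, an RNA helicase gene. These small genes sit within longer transcribed genes, and the table cannot tell the mark of the host from that of the small RNA.

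Protein-coding genes followed in shores. HBS1L, which helps rescue stalled ribosomes, had -27.02 in its own intron, on chromosome 6 from 135375629 to 135375769. TRAF7, a ubiquitin ligase, had -25.61 in an exon of its neighbour RAB26. P2RY2, a nucleotide receptor, had -24.21 outside any gene body. KMT2E-AS1, an antisense RNA gene, had -23.11 inside KMT2E, a chromatin regulator of the MLL family. CAPZB, which caps actin filaments, had -22.83. The position relative to the gene thus varied even among the strongest scores.

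Outside islands and shores stood the most negative promoter score of all, -51.04 at TCF4, an E-protein transcription factor, in its own intron on chromosome 18 from 53253384 to 53253460. MEIS1-AS2 followed with -32.84 on chromosome 2 from 66669060 to 66669248, inside MEIS1, the homeobox cofactor of HOXA9. SNORD17 had -31.58 inside SNX5, and SNORD70 had -24.21 inside NOP58, a core protein of the particles that such RNAs form. MIR4466 had -24.6 inside ARID1B, a chromatin remodeller subunit. IKZF1, the Ikaros factor of blood cell development, had -22.83 in its own intron on chromosome 7 from 50346975 to 50347077. BMI1, a Polycomb protein of stem cell renewal, had -20.75 inside the readthrough gene COMMD3-BMI1. GOLGA8N had -27.02, but it belongs to a family of near-identical copies, so its reads may come from other members.

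The RefSeq starts of the genes followed the class of their regions in part. Of 665 protein-coding genes with a promoter region, 558 (83.9%) had a window of 250 bases before to 50 after the start. The median ratio of observed to expected CG dinucleotides was 0.866 for the 191 island genes, 0.867 for the 314 shore genes and 0.479 for the 53 genes in neither class, against 0.737 for 15284 protein-coding genes without an H3K79me3 promoter region. The median GC content was 66.0%, 63.3% and 56.0% in the same order, against 62.3%. Genes of the neither class thus had CpG-poor starts more often, but their ratios ran over nearly the whole range, as the plot of CpG ratios shows.

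**Figure D2:**
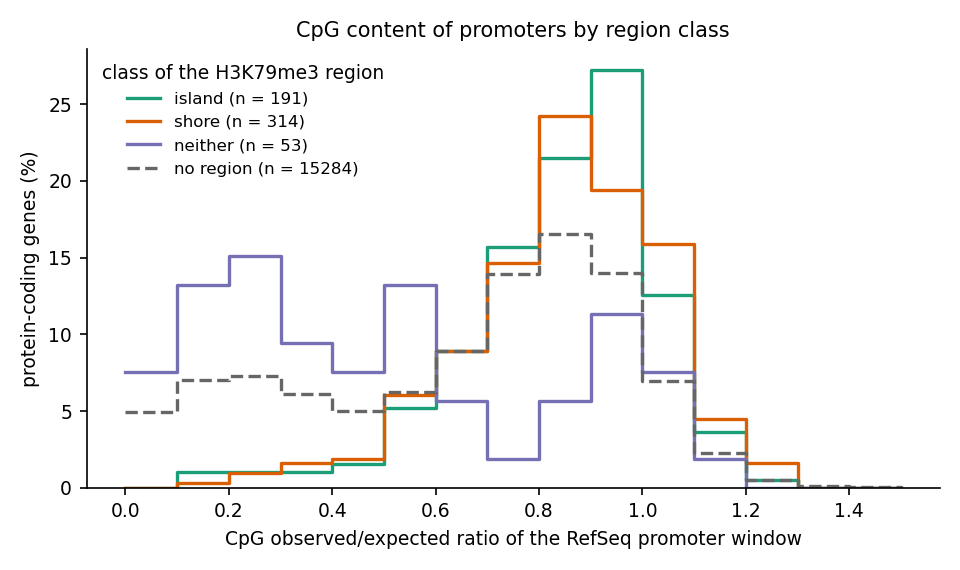
The horizontal axis is the observed to expected CpG ratio of the RefSeq promoter window (GRCh38.p14, 300 bases), and the vertical axis the percent of protein-coding genes per step of 0.1. Solid lines are genes by the class of their H3K79me3 region and the dashed line is genes with none. Medians are 0.866 (island), 0.867 (shore), 0.479 (neither) and 0.737 (no region).

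Short motifs were counted in the same windows on both strands. These shares are over windows, so a gene with several windows counts more than once. The neither class held 114 windows of 53 genes, and TATAAA was in 16 of these windows. TATAAA, the letters of the TATA box, was in 4.39% of windows of island genes, 5.45% of shore genes and 14% of neither genes, against 9.47% of all protein-coding windows. GGGCGG, a GC box bound by Sp factors, was in 70.3%, 63.2% and 39.5%, against 56.3%. CCAAT was in 34.5%, 33.5% and 28.9%, against 34.7%. The first pair followed the CG content of the classes, and CCAAT varied little. A match is a run of letters and not a site in use.

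Over all promoter regions, the commonest place was the body of a different gene, although at protein-coding genes the own body was commoner. The promoter column was set against the exon, intron and UTR columns of the same row, and a region counted as own body when any gene in its promoter column was also in its body columns. Of the 1122 regions, 586 (52.2%, 49.3 to 55.1%) were in the body of another gene only, 386 (34.4%) in their own gene body, 38 (3.39%) in both and 112 (9.98%) in no gene body. In H3K79me2 the shares were 41.4%, 36.3%, 2.89% and 19.4%. Among the H3K79me3 regions, 861 (76.7%) also stood in the column for the 2 kb before a start, and 567 of these 861 (65.9%) were in the body of another gene only. How far the promoter column runs past the start is not given in the sources used here, so counts before and after the start are not densities.

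The CpG class went with this position. In islands 195 of 256 regions (76.2%) were in their own gene body and 42 (16.4%) in that of another gene only. In shores the order was turned round, with 132 of 667 (19.8%) in their own body and 449 (67.3%) in another's. In neither class 59 of 199 (29.6%) were in their own body and 95 (47.7%) in another's. A shore flanks an island on both sides, and among shore regions with 1 gene of known strand and 1 island, 338 of 418 lay before the island in the direction of the promoter gene. Of those in another gene's body, 288 of 307 (93.8%) lay before it, and of those in their own body 3 of 60 (5%).

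**Figure D3:**
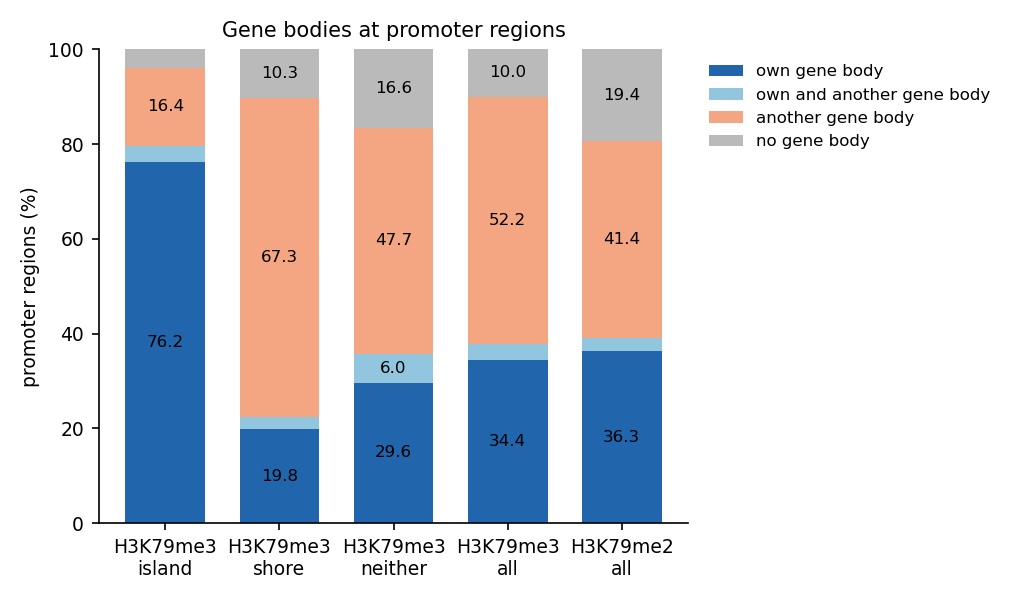
Bars show the percent of promoter regions in their own gene body, in their own and another, in another gene's body only and in no gene body, for H3K79me3 by CpG class and for both marks. Own body makes up 76.2% of island regions and another gene's body 67.3% of shore regions.

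These neighbours were mostly on opposite strands. Among regions with 1 promoter gene and 1 body gene of known strand, the strands differed in 222 of 227 cases (97.8%, 94.9 to 99.1%) where the promoter gene was protein-coding, and in 67 of 67 where it was a long noncoding RNA gene. For small RNA genes it was 4 of 53 (7.55%), so most shared the strand of their host. In H3K79me2 the protein-coding share was 86 of 87 (98.9%). Strands come from the gene annotation, and antisense genes such as MEIS1-AS2 are among the long noncoding RNA genes. The share over all annotated neighbouring pairs was not computed, so these counts describe gene layout and not the mark. Where the pair was protein-coding on both sides, the body gene had a further H3K79me3 region outside promoters in 90 of 205 pairs (43.9%) and the promoter gene in 55 (26.8%), and gene length was not matched between them. The KBTBD3 and AASDHPPT starts printed above are such a pair, with a score of -20.19 at chromosome 11 from 105949169 to 105949233. AASDHPPT, an enzyme that attaches phosphopantetheine, had 1 further region in its body and KBTBD3 had 0.

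The sign differed slightly by position, in a comparison added after the data were seen. Regions in their own body, including those also in another's, were less negative than regions in another's body only, by -2.08 points (-4.10 to -0.578). The counts behind this are small, with 11 of these 424 regions and 3 of 586 regions in another's body positive. In regions of score size 10 or more the difference was -0.589 points (-2.89 to 0.915), an interval that spans 0. Outside gene bodies 4 of 112 promoter regions were positive.

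By kind of gene, 792 of the 1122 regions (70.6%) named a protein-coding gene. Another 165 (14.7%) named a small RNA gene and no protein-coding one, in some rows beside a long noncoding RNA gene. A further 110 (9.80%) named a long noncoding RNA gene and neither of the other kinds. All 165 small RNA regions were negative, with a median size of 10.89, and 141 of them (85.5%) were in another gene's body. For long noncoding RNA genes it was 92 of 110 (83.6%), and for protein-coding genes 317 of 792 (40.0%). At protein-coding genes the own body was the commoner place, with 374 of 792 (47.2%), so the order seen over all regions did not hold there. Without regions that name a small RNA gene, another gene's body still held 46.6% of the regions (43.4 to 49.8%).

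Among all human protein-coding genes in RefSeq, 3.32% had an H3K79me3 promoter region of either sign (665 of 20052), 3.24% a negative one and 0.0848% a positive one. In H3K79me2 the share was 1.84%. Small nucleolar RNA genes stood at 7.67% (92 of 1199), microRNA genes at 3.29% (63 of 1913) and long noncoding RNA genes at 0.54% (99 of 18330). Of the 976 genes named in the table, 946 (96.9%) matched a RefSeq symbol. Regions were single at 732 genes, 2 at 181 and 3 or more at 63. All regions of a gene were negative at 956 genes and positive at 17, and 3 genes had both signs.

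Gene lists of leukemia and housekeeping pathways were then read against these shares, which are not matched for expression or gene length. The MLL fusion targets had the highest share of members with a promoter region among the 12 lists. Of 47 members, 17 (36.2%) had a promoter region, with 33 regions in all, each negative, against 3.24% of protein-coding genes with a negative one. Their median largest size was 13.3. In 11 of the 47 a promoter region lay in the own body, against 1.68% of protein-coding genes. The order was not the same for any H3K79me3 region in the gene body, which 29 of the 47 had. That share was higher in splicing factors (44 of 50), ribosomal protein and translation factor genes (58 of 74) and chromatin modifiers (33 of 51). It was lower in the remaining lists. The share of all protein-coding genes with any such region was not computed, so these counts only order the lists.

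TCF4 led the MLL fusion targets with the -51.04 given above. RUNX2, a runt-family transcription factor, had -21.47 and -14.96 in its own intron, and CDK6 had -18.5 and -16.22. SATB1, which organises chromatin loops, had 4 regions of -15.26, -12.01, -11.34 and -7.53. JMJD1C, a histone demethylase-like protein that leukemia cells depend on, had -14.63 across an exon and intron of its own. It also had -13.73 and -8.32 in its own introns. BCL2, the inhibitor of apoptosis, had -13.73, and CCND3, a cyclin that pairs with CDK6, had -13.19. Each H3K79me3 promoter region of these genes was negative, from shore, island and neither positions alike, as were 98.4% of all H3K79me3 promoter regions. In H3K79me2, JMJD1C had a positive promoter score of 8.13.

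Of the HOXA cluster, the homeobox genes that MLL fusions keep active, HOXA7 had -13.3, -10.93 and -9.51, HOXA6 had -12.52, HOXA5 had -10.25 and -9.08, and HOXA4 had -9.51. HOXA9 and HOXA10 had no region in their own promoter column. MIR196B, which lies between them, had -14.63 on chromosome 7 from 27208770 to 27208882 and -8.41. MEIS1 likewise had none, while its antisense gene MEIS1-AS2 had -32.84, -12.19 and -11.01, all inside the MEIS1 body, where 52 further H3K79me3 regions stood outside promoters. PBX3, the other cofactor of HOXA proteins, had -12.01 in its own body. DOT1L had none.

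**Figure D4:**
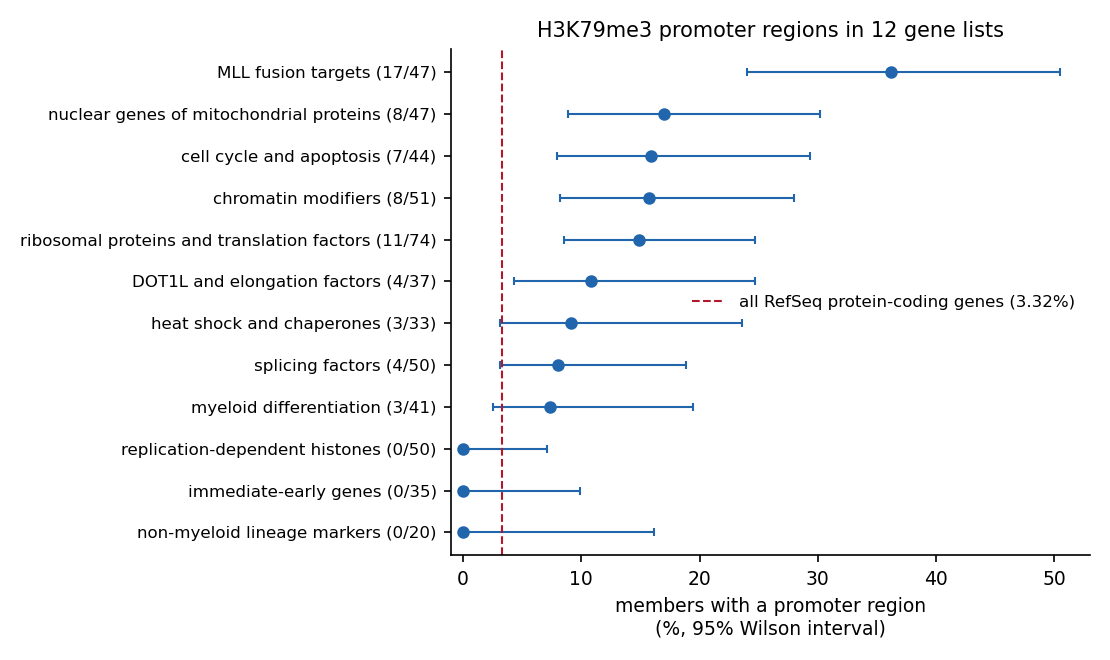
The horizontal axis is the percent of list members with an H3K79me3 promoter region, with 95% Wilson intervals over genes, and counts stand beside each list. The dashed line is the 3.32% of all RefSeq protein-coding genes. The MLL fusion targets stand highest at 36.2%, and 3 lists are at 0.

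The targeted locus was among the genes with most regions. LAMP5, whose product is a membrane protein of lysosomes and endosomes, had 4 promoter regions on chromosome 20, all in the shore of 1 island. They scored -9.09 (9493360 to 9493453), -11.8 (9493517 to 9493631), -7.29 (9493848 to 9493921) and -14.63 (9494208 to 9494372). All 4 were in an intron of LAMP5-AS1 and before the LAMP5 start. LAMP5-AS1 had no region in its own promoter column, and LAMP5 had none in H3K79me2 at its promoter.

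Among lists of general function, 8 of 47 nuclear genes of mitochondrial proteins (17.0%), 7 of 44 cell cycle and apoptosis genes (15.9%), 8 of 51 chromatin modifiers (15.7%) and 11 of 74 ribosomal protein and translation factor genes (14.9%) had a promoter region. Chromatin modifiers were led by CHD4, a nucleosome remodeller, at -21.47, BMI1 at -20.75, CHD2 at -20.12 and ASH1L, a histone methyltransferase, at -16.22. Translation genes were led by RPL7 at -21.58, in a region shared with the RDH10 promoter, then RPL32 at -18.37, EEF1B2 at -17.36 and RPL4 at -16.22. Mitochondrial genes were led by NDUFB9 at -15.45 and TOMM20 at -15.26, and SDHA, of respiratory complex II, was positive at 10.9. Cell cycle genes were led by CDK6, BCL2 and CCND3, which are also MLL fusion targets, and then CDKN2C, a kinase inhibitor, at -10.22.

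The remaining lists were closer to the background. DOT1L and elongation factors had 4 of 37 (10.8%), with EAF2 at -13.3, EAF1 and NELFA at -8.32 and SUPT5H, a subunit of the elongation factor DSIF, positive at 9.66. Heat shock and chaperone genes had 3 of 33 (9.09%), led by HSPE1 at -13.73 and CALR at -10.93, and splicing factors 4 of 50 (8%), led by HNRNPF at -15.98. Myeloid differentiation genes had 3 of 41 (7.32%), namely GFI1 at -10.52, GATA2 at -9.51 and LYN at -8. None was listed for the 50 replication-dependent histone genes of the list (46 matched RefSeq), the 35 immediate-early genes and the 20 markers of other lineages. The histone list does not hold every such gene: HIST2H2AA3, which is not on it, had a promoter region at -9.51.

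The positive promoter regions were few and mostly small. VEGFB, a growth factor of the VEGF family, had 99.48 in an island outside any gene body, on chromosome 11 from 64001863 to 64001958. Without VEGFB the other 17 had a median of 8.44 and none was above 12.18. TLX2, a homeobox gene, had 12.18 and PIGB, an enzyme of membrane anchor synthesis, had 11.34. SDHA and CCDC127 shared the region at 10.9. Scores of 9.66 were found at SUPT5H, TMEM198B, RSRC1 and the shared promoter of ADGRA1 and ADGRA1-AS1.

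Next came CLPTM1 at 9.08, UNC93B1, which guides Toll-like receptors to endosomes, at 8.44, LINC00167 at 8.41, and ST18 at 8. The lowest 5 ranged from 5.09 to 7.99. The 3 genes with both signs were PIGB (-13.73, -8.32 and 11.34), LINC00167 (-10.25 and 8.41) and FDFT1, squalene synthase (-10.52 and 7.99). VEGFB thus accounts for the upper tail by itself.

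Several genes collected many promoter regions. TATDN1 had 6, from -21.58 to -8.92, 5 of them inside NDUFB9, with which it shared 2. MIR6515 had 5 (-29.9, -20.12, -17.38, -10.93 and -8.14) along CALR, and MIR618 had 5 (-18.8, -12.01, -9.51, -9.25 and -6.95) along LIN7A. WT1, a zinc finger gene used as a marker of leukemia, had 5 in the shores around its start, with -18.8 and -17.5 in its own intron and -10.74, -9.51 and -9.08 across WT1-AS. The last 4 by the naming rule had 4 each and were C6orf120, GOLGA8O, LRRC27 and LAMP5. Every H3K79me3 promoter region of these 8 genes was negative, as were 98.4% of all H3K79me3 promoter regions.

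Small RNA clusters put many genes on single regions. A region on chromosome 11 from 62622306, with a score of -10, stood at the promoters of 8 genes. They were SLC3A2, an amino acid transporter subunit, and 7 small nucleolar RNA genes of the host SNHG1. A region at -18.8 stood at the promoters of 4 such genes inside RPL13A. The microRNA cluster printed above had -9.51 (chromosome 13, 92000945 to 92001111, naming MIR17 and MIR18A) and -7.66 (92002449 to 92002626, naming 6 microRNA genes), both within the host MIR17HG. Counted by region, the cluster therefore gives 2 values and not one per microRNA.

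Chromosomes differed in the share of their H3K79me3 regions at promoters. It was highest on chromosome 17 (68 of 511, 13.3%, 10.6 to 16.5%), 11 (12.9%) and 19 (12.8%). Among the 23 chromosomes with a promoter region it was lowest on chromosome 18 (14 of 327, 4.28%, 2.57 to 7.06%), 13 (4.62%) and 21 (4.83%). Gene density, for which chromosomes 17 and 19 are known, was not taken into account.

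Few H3K79me3 regions overlapped an H3K79me2 region, at promoters and elsewhere. It was 15 of 1122 promoter regions (1.34%, 0.812 to 2.19%) and 144 of the other 12544 (1.15%, 0.976 to 1.35%), with an overlap of at least 1 bp. Of the 15 at promoters, 4 had the same sign and 11 opposite signs. By gene symbol 94 genes had promoter regions in both marks, 9.63% of the 976 H3K79me3 genes and 19.0% of the 495 H3K79me2 genes. Of the 665 protein-coding genes with an H3K79me3 promoter region, 73 (11.0%, 8.82 to 13.6%) had one in H3K79me2, against 1.84% of all protein-coding genes, a share not matched for expression. Of the 94 genes of any kind, 53 were negative in both marks, and 34 were negative in H3K79me3 and positive in H3K79me2. Another 5 were negative in H3K79me3 with both signs in H3K79me2. The remaining genes were VEGFB and RSRC1. Beside these counts, 98.4% of all H3K79me3 promoter regions and 54.0% of all H3K79me2 promoter regions were negative. Whether the pairs of signs depart from these shares was not tested.

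VEGFB was the single gene with a positive H3K79me3 and a negative H3K79me2 score: 99.48 against -15.26, in overlapping regions (64001856 to 64001965 in H3K79me2). RSRC1, a splicing-related gene, was positive in both, with 9.66 in H3K79me3 and 22.98 and 16.22 in H3K79me2. PARTICL, a noncoding RNA gene inside MAT2A, had -18.37 in H3K79me3 and 17.66 in H3K79me2. ZNF490 had -17.36 in H3K79me3 and 15.45 in H3K79me2, and MIR196B had -14.63 and 14.96. RPL4 had -16.22 in both marks, as did DBF4 with -13.73 and NUTF2 with -12.52. WT1, with 5 negative H3K79me3 regions, had -11.31 in H3K79me2. The signs of the marks at a shared promoter were thus alike at some genes and opposite at others. This mix was not tested against the overall negative shares of the marks given above.

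**Figure D5:**
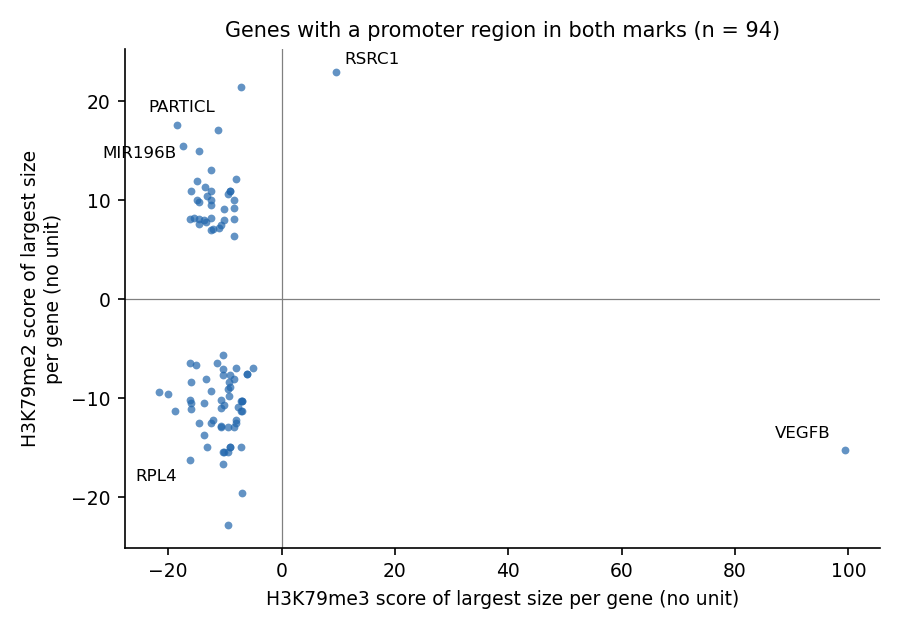
Each point is 1 of the 94 genes with a promoter region in both marks, with the H3K79me3 score of largest size on the horizontal axis and the H3K79me2 score on the vertical axis (authors' scores, no unit). Only VEGFB and RSRC1 lie right of 0, and H3K79me2 scores lie on both sides.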

How the data were processed

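The deposited data were 2 tables of regions called different between shLAMP5-AS1 and shNC MOLM-13 cells, 1 for H3K79me3 and 1 for H3K79me2. Each came from 1 ChIP library and 1 input library per condition, 8 libraries in all. Per the submitters' processing notes, DESeq2, bedtools, MACS2 2.1.1 and Bowtie2 were among the authors' tools, with hg19, hg38 and GRCh38 as the builds. The role and order of these tools are not given in the sources used here, nor is the step that made the tables. Per the file headers, each row holds a region, the authors' signed score and annotation columns for promoters, 2 kb upstream, exons, introns, UTRs, CpG islands and CpG shores. Read depth is unknown, since the tables hold no counts. Coordinates are given as deposited.

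From these tables, regions were selected, classed and counted with Python 3.11.15, pandas 2.3.3 and numpy 2.4.6, and drawn with matplotlib 3.10.9. Shares carry 95% Wilson intervals (scipy 1.17.1) and differences of shares 95% Newcombe intervals, which were tested on simulated data. Overlaps were found with bedtools 2.31.1. Gene names, biotypes, strands and sequences are from RefSeq (GRCh38.p14), matched by symbol. Of 63 microRNA genes at promoters, 59 had an entry among the microRNA sequences. With 1 library per group, no p-value was computed.

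The members and gene lists were chosen with earlier results of these data known. The named genes were the 8 with the most negative score per CpG class, the 15 with the most positive, up to 4 per list, the 8 with the most regions, the 8 leading regions at 2 or more promoters, the 8 leading genes with both marks, 8 with opposite signs, and DOT1L, MEIS1, HOXA10, HOXA9, LAMP5 and LAMP5-AS1. Not every gene of the rule is printed. Any other gene in the text was picked with its values in view. Alternatives changed the regions used, the unit counted, the class of regions in both CpG columns and the overlap that counts as shared.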

Additional observations from a re-analysis of the deposited data

How the results depend on the processing

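Of 29 alternatives over 11 results, 22 were classed as unchanged, 5 as moved, 1 as stronger and 1 as weaker. Unchanged stands for a share or median inside the reported interval, or a count within a set factor. By that factor, 665 protein-coding genes in place of 976 genes counted as unchanged. For a difference it stands for the same sign and the same reading of the interval against 0. No difference changed sign. In regions of score size 10 or more, the negative share at promoters was 99.4%, against 98.4% in all, and its difference from the other H3K79me3 regions was 1.46 points, an interval (0.408 to 2) that no longer spans 0. That setting left 587 of 976 genes with a promoter region, since it uses fewer regions, and moved the difference in negative share between own and other gene bodies to -0.589 points. A reciprocal overlap of 50% kept 7 of the 15 H3K79me3 promoter regions that overlap an H3K79me2 region, and counting overlapping promoter regions in place of shared symbols gave 14 in place of 94. Leaving out regions that name a small RNA gene put 46.6% of promoter regions in the body of another gene only, against 52.2%. The results on position in gene bodies and on islands against shores, with their alternatives, were added after the data were seen. The other settings (autosomes only, 1 value per gene, single-gene regions, regions in both CpG columns counted as shore, other regions in genes only) gave values classed as unchanged. No paired analysis was possible because each group held 1 ChIP library, and no replicate could be left out. The depth of the libraries is unknown, so no limit on a region that the tables do not list can be given.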
